A study of Mus musculus with 27 samples.

Results

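The brain endothelium lines the capillaries of the hippocampus and, through its tight junctions, carriers and pumps, decides what passes from blood to brain. Here the RNA of 10 genes of that barrier was described across the nuclei of mouse hippocampus: Cldn5 and Pecam1 of the cell junctions, the carriers Slc2a1, Slc7a5, Slco1a4 and Mfsd2a, the efflux pumps Abcb1a and Abcg2, and the receptors Tfrc and Flt1. The genes were taken by symbol from the 31053 genes of the count matrices, by a rule that uses no measured value, although earlier results of these data were known when they were picked. In these libraries all 10 had their highest level in endothelial-like nuclei, but their spread to other cells differed widely. In endothelial-like nuclei none of the 10, and no other gene tested (0%), passed the adjusted threshold for the tau transgene or for loss of Cgas.

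As background, brain endothelial cells are joined by tight junctions with little transcytosis, so nutrients need carriers in the membrane, and lipophilic compounds that enter are returned to the blood by ATP-driven pumps. Wnt and norrin signals, relayed by beta-catenin and TCF/LEF factors, induce and keep this state. ETS and SOX family factors set endothelial identity in general, in brain and in other organs.

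The study asked how the DNA sensor cGAS, encoded by Cgas, acts in tauopathy, and profiled hippocampal nuclei from 27 mice, 1 library a mouse, by droplet-based single-nucleus RNA-seq. The P301S mice carry a transgene for human tau with the P301S mutation, driven by the mouse prion protein promoter. The Cgas-/- genotype came from crosses with a Cgas-/- line, not from a Cre in a given cell type. Mice were between 8 and 10 months old. Without the transgene (non-transgenic) there were 5 Cgas+/+ mice (3 males, 2 females), 2 Cgas+/- males and 2 Cgas-/- males. With it there were 6 P301S Cgas+/+, 6 P301S Cgas+/- and 6 P301S Cgas-/- mice, 3 males and 3 females each. The assay counts unique molecular identifiers (UMIs), each 1 captured RNA molecule, and reads from introns were counted too. A library held 46091490 to 79484316 UMIs. Of 241938 barcodes 204852 were kept, 5840 to 12572 a mouse. In all 7324 barcode sequences occurred in more than 1 library, and the pair of libraries that shared most had 48 in common. In whole libraries, Cgas (listed as Mb21d1) stood at 1.6 to 2.29 CPM (UMIs per 1000000 UMIs of the sum) in Cgas-/- mice and 1.22 to 1.82 CPM in Cgas+/+ mice. It stood at 1.24 to 2.77 CPM in libraries labelled P301S Cgas-/- and 1.36 to 3.6 CPM in those labelled P301S Cgas+/+. The counts of the targeted gene therefore did not follow the genotype labels, and every direction for Cgas below refers to libraries by their label. Which part of the gene was deleted is not given in the sources used here, and 3' tags that lie outside it would check nothing. The sex-linked genes matched the labelled sex in all 27 libraries.

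Nuclei were grouped by expression into clusters without any of the 10 genes, and clusters were named from lists of markers that hold none of them. A class named this way is written with "-like". Endothelial-like nuclei were 963 of the 204852 (0.47%), with 0 to 86 a mouse and a median of 39. All 12 of their markers were detected, from 29.6 CPM for Egfl7, a secreted angiogenic factor, to 2260 CPM for Adgrl4, an endothelial adhesion receptor. Those markers stood in microglia-like nuclei at a median of 0.162% of their endothelial-like level, and in mural-like nuclei at 0.467%. Some were shared: Emcn, an endothelial sialomucin, reached 44.8% of its endothelial-like level in mural-like nuclei, and Cdh5, the endothelial cadherin, 51.4% in fibroblast-like nuclei. Values per mouse use the 24 mice with at least 10 endothelial-like nuclei. P301S Cgas-/- replicate 3 had 9 such nuclei, Cgas+/+ replicate 3 had 1 and P301S Cgas+/- replicate 6 had 0. In the latter pair the removal of likely doublets had taken 22 and 31 nuclei with endothelial markers, of 182 taken in all libraries. In the order of replicates it had taken 26, 0, 22, 2 and 19 in Cgas+/+ mice. In P301S Cgas+/+ mice it had taken 2, 4, 0, 2, 14 and 0. Some results are also given with those 182 put back.

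The deposited files give no sequence, so the stretch of 250 bases before each start site was read from RefSeq (build GRCm38.p6), which held windows for 8 of the 10 genes and none for Pecam1 and Slc7a5. The 3 windows below are those of Flt1, Slco1a4 and Cldn5, which stand for different patterns in the results: a receptor seen in nearly every endothelial-like nucleus, a carrier shared with the choroid plexus, and the gene most restricted to endothelial-like nuclei. Capitals mark the ETS core AGGAAG or its reverse complement CTTCCT. The Flt1 window lies at chr5:147726012-147726261 on the minus strand, that of Slco1a4 at chr6:141856221-141856470 on the minus strand and that of Cldn5 at chr16:18776597-18776846 on the plus strand.
Flt1: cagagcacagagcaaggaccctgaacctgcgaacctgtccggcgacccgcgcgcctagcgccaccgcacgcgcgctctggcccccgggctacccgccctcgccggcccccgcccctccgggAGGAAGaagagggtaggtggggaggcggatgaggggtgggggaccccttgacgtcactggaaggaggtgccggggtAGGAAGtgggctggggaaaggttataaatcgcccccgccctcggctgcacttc
Slco1a4: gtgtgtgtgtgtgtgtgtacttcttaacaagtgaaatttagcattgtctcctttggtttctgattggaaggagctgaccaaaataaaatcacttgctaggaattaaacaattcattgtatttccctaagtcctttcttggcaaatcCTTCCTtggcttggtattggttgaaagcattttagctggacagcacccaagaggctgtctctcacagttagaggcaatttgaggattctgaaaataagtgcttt
Cldn5: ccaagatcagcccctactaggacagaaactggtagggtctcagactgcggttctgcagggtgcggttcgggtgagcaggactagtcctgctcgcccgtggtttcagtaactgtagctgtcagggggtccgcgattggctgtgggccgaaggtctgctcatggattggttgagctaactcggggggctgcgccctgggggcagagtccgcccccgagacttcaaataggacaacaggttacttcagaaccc
The Flt1 window held 2 ETS matches, that of Slco1a4 held 1 and that of Cldn5 none. The 8 genes had 11 windows, since Abcg2 has 3 start sites there and Tfrc 2. Of the 11, 7 held an ETS match (in Abcb1a, Abcg2, Flt1, Slco1a4 and Tfrc), against 29.5% of all 32851 mouse windows of that length. The GC box GGGCGG was found in 6 of the 11, those of Cldn5 and Flt1 among them, against 32.7% of all windows. The TCF/LEF core CTTTGA was found in Abcb1a and Mfsd2a only, against 13.8% of all. The hypoxia element core ACGTG was found in Mfsd2a, Slc2a1 and Tfrc (16.6%), the SOX core AACAAT in Slco1a4 (9.42%) and the forkhead core TGTTTAC in Abcb1a (3.17%). The Abcb1a window (chr5:8566841-8567090) lies before a RefSeq start site far upstream of the span given by the other annotation, which begins at 8660077, so its matches do not describe the sequence next to that span. Both strands were searched, and no motif contains another. GC content of the printed windows was 70.4% for Flt1, 39.2% for Slco1a4 and 59.6% for Cldn5. A match is a run of letters and was not tested as a binding site.

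Among the junction genes, Cldn5, the main claudin of brain tight junctions, was the most restricted of the 10 by its share of molecules. Of its 1558 UMIs in all nuclei, 83.8% lay in endothelial-like nuclei, where the level was 785 ± 443 CPM (SD, n = 24 mice). No other named class exceeded 3.46 CPM when pooled, the level that a single UMI gave in T cell-like nuclei. Cldn5 was seen in 46.4% of endothelial-like nuclei, which had a median of 1592 UMIs, against 0.0705% of excitatory neuron-like nuclei with a median of 8838 UMIs. Pecam1, the adhesion molecule CD31 of endothelium and of leukocytes, was less restricted. Its level was 725 ± 184 CPM, with 30.3% of its UMIs in endothelial-like nuclei. In the account of classes, a level with no SD is pooled over all nuclei of the class. T cell-like nuclei stood next at 132 CPM (38 UMIs), and the endothelial-like level was 5.58-fold higher. The 9 mice with at least 10 T cell-like nuclei were all P301S mice, and they held 31 of the 38 Pecam1 UMIs. Microglia-like nuclei held 10.5% of its UMIs and excitatory neuron-like nuclei 27.4%, where the level was 1.75 CPM in a class of 73810 nuclei. Astrocyte-like nuclei held 8.02% (3.5 ± 1.62 CPM), oligodendrocyte-like nuclei 5.63% (2.7 ± 1.21 CPM) and inhibitory neuron-like nuclei 5.16% (2.09 ± 0.85 CPM).

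The 4 carriers each had a different next class. Slc2a1, the glucose transporter GLUT1, stood at 919 ± 245 CPM in endothelial-like nuclei, 6.83-fold over ependymal-like nuclei at 134 CPM, where it was seen in 29.9% of nuclei. Astrocyte-like nuclei, at 25.3 ± 4.43 CPM (n = 27), still held 19.7% of its UMIs. Excitatory neuron-like nuclei held 25.2%, oligodendrocyte-like nuclei 19.5% and endothelial-like nuclei 13.5%. Slc7a5, the LAT1 carrier for large neutral amino acids and levodopa, stood at 846 ± 280 CPM and 13.5-fold over T cell-like nuclei (58.9 CPM, 17 UMIs). Only 9.71% of its UMIs lay in endothelial-like nuclei, and 58.2% in excitatory neuron-like nuclei at 12.5 ± 4.29 CPM. Inhibitory neuron-like nuclei held 10.9% at 15.6 ± 8.84 CPM and astrocyte-like nuclei 5.27% at 8.34 ± 2.55 CPM.

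Slco1a4, an organic anion transporter, stood at 3970 ± 880 CPM in endothelial-like nuclei and at 297 CPM in choroid plexus-like nuclei, the secretory epithelium of the ventricles. The choroid plexus-like nuclei held 34.5% of its UMIs, and 68.0% of them carried at least 1 Slco1a4 UMI, against 0.26% of excitatory neuron-like nuclei. Of the 27 mice, 13 had at least 10 choroid plexus-like nuclei. Of the 4320 Slco1a4 UMIs in that class, 1 Cgas-/- library gave 911 and 4 P301S Cgas+/+ libraries gave 1763. Fibroblast-like nuclei stood after the choroid plexus-like ones, at 74.3 CPM pooled and 49.4 ± 42.7 CPM over 16 mice. Mfsd2a, the lysophospholipid carrier that brings docosahexaenoic acid to the brain and holds transcytosis down, had the lowest endothelial-like count of the 10, 203 UMIs at 122 ± 75.6 CPM. Astrocyte-like nuclei held 48.0% of its UMIs (19.0 ± 9.77 CPM) and endothelial-like nuclei 5.57%. OPC-like nuclei, the oligodendrocyte precursors, stood next in pooled level at 25.3 CPM, 4.57-fold under endothelial-like nuclei, and committed oligodendrocyte precursor-like nuclei followed at 24.7 CPM. As means per mouse the order of these classes was the other way, at 25.2 ± 8.32 CPM (n = 27) and 27.8 ± 17.3 CPM (n = 26), within their spread. Excitatory neuron-like nuclei held 17.5% of its UMIs at 0.976 ± 0.591 CPM.

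The efflux pumps shared their next class, fibroblast-like nuclei, but differed in the share of their UMIs that lay in endothelial-like nuclei. Abcb1a, the P-glycoprotein of mouse brain capillaries, stood at 1380 ± 214 CPM, with 64.8% of its UMIs in endothelial-like nuclei. It was 11-fold over fibroblast-like nuclei by pooled level (126 CPM) and 6.63-fold by means over mice, where fibroblast-like nuclei had 208 ± 199 CPM (n = 16). T cell-like nuclei stood at 125 CPM (36 UMIs). Fibroblast-like nuclei held 8.02% of its UMIs and excitatory neuron-like nuclei 13.9%, at 0.797 ± 0.269 CPM. That is 0.0565% of its endothelial-like level, under the 0.139% at which the median endothelial marker stood in the same class. Whether it is background was not tested. Abcg2, the breast cancer resistance protein, stood at 928 ± 238 CPM in endothelial-like nuclei, which held 10.2% of its UMIs. It was also seen in fibroblast-like nuclei, at 205 CPM pooled and 248 ± 139 CPM over 16 mice. Microglia-like nuclei stood at 93.1 ± 14.9 CPM and OPC-like nuclei at 59.0 ± 9.9 CPM (both n = 27). Excitatory neuron-like nuclei held 47.7% of its UMIs at 11.5 ± 1.73 CPM. Abcb1a has a close paralog, Abcb1b, so reads that match both could have been lost in the authors' counting.

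Of the receptors, Flt1, the VEGF receptor 1, was seen in 99.2% of endothelial-like nuclei, against 0.408% of excitatory neuron-like nuclei. Its level was 6890 ± 1290 CPM, 20.2-fold over mural-like nuclei at 333 CPM, where 34.0% of nuclei carried it. Endothelial-like nuclei held 77.0% of its UMIs and microglia-like nuclei 9.34%, at 50.8 ± 68.7 CPM over 27 mice. That SD was larger than the mean, and the values by mouse follow below. Tfrc, the transferrin receptor that takes up iron, was the most shared of the 10 by its share of molecules. Endothelial-like nuclei stood at 529 ± 180 CPM but held 3.66% of its UMIs, against 57.0% in excitatory neuron-like nuclei at 21.3 ± 5.24 CPM and 11.9% in inhibitory neuron-like nuclei at 28.4 ± 7.42 CPM. Astrocyte-like nuclei held 6.67% at 17.5 ± 2.72 CPM and oligodendrocyte-like nuclei 5.75% at 16 ± 3.26 CPM. Nuclei of unnamed clusters held 5.59% to 9.71% of the UMIs of Cldn5, Pecam1, Slc7a5, Abcg2 and Tfrc, and under 5% of those of the other 5 genes. For Cldn5 that was 0.111% of its endothelial-like level, under the 0.253% of the endothelial markers there, and was not tested as background either. The other shares over 5% lay above the level of the endothelial markers in their class. Least so was Pecam1, in excitatory neuron-like nuclei (0.239% against 0.139%) and in nuclei of unnamed clusters (0.41% against 0.253%). With nuclei classed by marker UMIs instead of clusters and likely doublets kept, all 10 genes still had their highest level in endothelial-like nuclei.

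**Figure D1:**
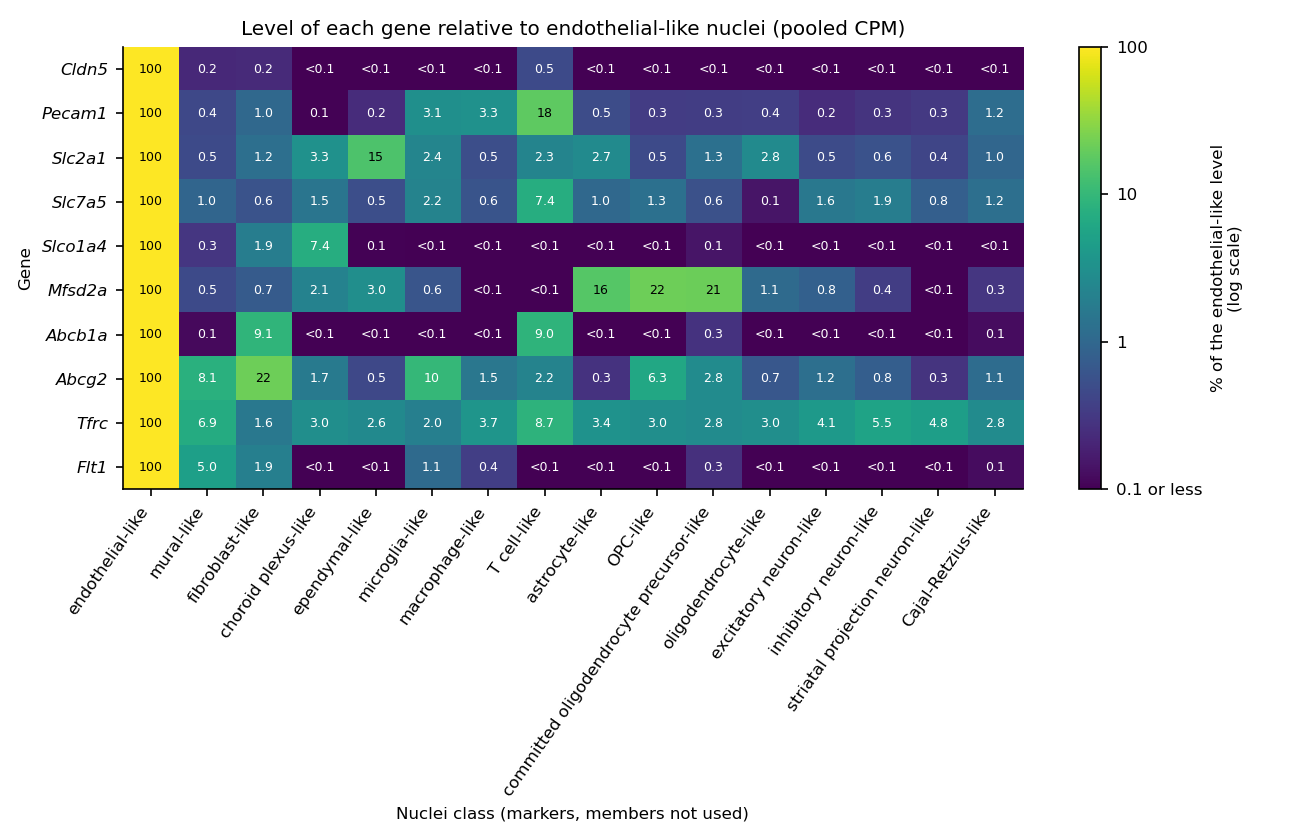
Pooled level (CPM) of each gene (rows) in each of the 16 named nuclei classes (columns), as a percent of its endothelial-like level, on a logarithmic colour scale. The highest percents outside endothelial-like nuclei are those of Mfsd2a in OPC-like nuclei (21.9%), Abcg2 in fibroblast-like nuclei (21.8%), Mfsd2a in committed oligodendrocyte precursor-like nuclei (21.3%) and Pecam1 in T cell-like nuclei (17.9%), while Cldn5 stays at or under 3.46 CPM outside endothelial-like nuclei.

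For each gene, the genes with the most similar levels over the 16 named classes were listed by Pearson's r of mean log2(CPM + 1), as a description over classes that share libraries. For Cldn5 these were Gkn3 (r = 0.997), known in brain arterial endothelium, Sox17 (0.996), a factor of arterial endothelium, and Gm32688. For Flt1 they were Notch4 (0.958), an endothelial Notch receptor, Tmem204 (0.943) and Bvht. Slco1a4 was closest to Tinagl1 (0.977), Mfsd2a to Cav1 (0.901), the caveolar coat protein, and Tfrc to Tek (0.938), the angiopoietin receptor. The lowest of the leading values was that of Abcg2, with Tmem204 at 0.852. Slc2a1 was closest to Fas (0.923), Slc7a5 to Slc35f2 (0.924), Pecam1 to Gch1 (0.96) and Abcb1a to Tnfsf10 (0.917).

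Endothelial-like nuclei fell into a large subcluster of 825 nuclei from 26 libraries and a small one of 138 nuclei from 25. The small one had more UMIs (median 2292 against 1493) and more mitochondrial RNA (median 3.08% against 0%), and a neuronal marker UMI was seen in 31.2% against 23.4% of nuclei. The 12 mural markers summed to 2250 CPM in the small subcluster and 27.9 CPM in the large one. All 12 were detected in the small one, led by Rgs5, a pericyte gene, at 1850 CPM, and 3 of the 12 (Kcnj8, Higd1b and Carmn) stood at 0 in the large one. The 12 endothelial markers summed to 10100 and 9100 CPM. Cldn5 stood at 1990 CPM in the small subcluster and 382 CPM in the large one, a ratio of 5.21. Mfsd2a had a ratio of 2.91, Slc2a1 of 1.77 and Slc7a5 of 1.51. The other 6 lay between 0.848 for Abcg2 and 1.12 for Tfrc. The ratios fell with the length of the gene. Cldn5 spans 1.42 kb without an intron (chromosome 16, 18776847 to 18778262, plus strand, GRCm38), Mfsd2a spans 14.3 kb, Tfrc 23.9 kb, Slc7a5 26.5 kb and Slc2a1 29.3 kb. The remaining genes span 50.8 kb (Slco1a4) to 164 kb (Flt1, chromosome 5, 147561604 to 147726011, minus strand). Spearman's rho over the 10 genes was -0.83 between span and ratio, a description without a test, since the nuclei, libraries and depth are shared. Mural markers, mitochondrial RNA and depth moved with these ratios, and their part in them was not tested.

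Cldn5 and Mfsd2a, with the highest ratios, also varied most between mice. The coefficient of variation over 24 mice was 62.0% for Mfsd2a and 56.4% for Cldn5, then 34.0% for Tfrc and 33.1% for Slc7a5, against 15.5% for Abcb1a and 18.7% for Flt1. Cldn5 ran from 289 CPM through a median of 661 to 2240 CPM, and Abcb1a from 971 through 1390 to 1810 CPM. Spearman's rho between span and coefficient of variation was -0.842 over the 10 genes. Mfsd2a also had the fewest UMIs, so its counting error was the largest.

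**Figure D2:**
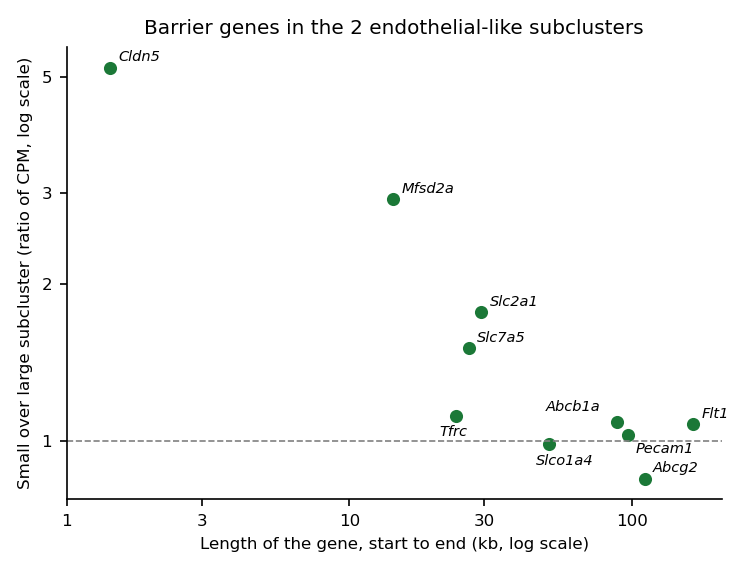
Ratio of the level (CPM) in the small endothelial-like subcluster to that in the large one (vertical axis, logarithmic) against the span of the gene in kilobases (horizontal axis, logarithmic), 1 point a gene. Cldn5, the shortest gene at 1.42 kb, has the highest ratio, 5.21, and the genes over 50 kb lie between 0.848 and 1.09.

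The tau contrast set P301S Cgas+/+ against Cgas+/+ mice. In endothelial-like nuclei, sums of UMIs per mouse were compared by edgeR's quasi-likelihood test with sex as a covariate. None of the 10 genes was called at an adjusted p under 0.05, nor was any of the 2248 genes tested (0%). At an unadjusted p under 0.05, 0 of the 10 and 68 of all genes stood (3.02%). Flt1 was nearest, at 5560, 6160, 6470 and 4580 CPM in Cgas+/+ mice and a low of 6280, a median of 7140 and a high of 9010 CPM in 6 P301S Cgas+/+ mice. The groups overlapped, since Cgas+/+ replicate 4 at 6470 CPM lay above 2 P301S Cgas+/+ mice. The log2 difference was 0.29 ± 0.16 (SE), with a 95% interval of -0.02 to 0.60 and an edgeR adjusted p of 0.998. An exact two-sided permutation test on log2(CPM + 1), which takes no account of sex, gave a difference of 0.35. Its p was 0.0286, and 0.858 after Benjamini-Hochberg adjustment over 30 such tests. Mfsd2a had the widest interval, -0.58 to 1.40 around 0.41. The narrowest intervals were those of Flt1 and of Abcb1a (-0.19 to 0.54). With the likely doublets that carried endothelial markers put back, Cgas+/+ replicate 3 entered at 6930 CPM for Flt1. The 5 Cgas+/+ mice then ran from 3470 through a median of 6160 to 6930 CPM. The 6 P301S Cgas+/+ mice ran from 5320 through 6310 to 8250 CPM. The Flt1 difference became 0.22 ± 0.17 (unadjusted p of 0.199, edgeR adjusted p of 0.999). Slc7a5 was then nearest, at 0.45 ± 0.24 (unadjusted p of 0.0733).

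The deletion contrast set P301S Cgas-/- against P301S Cgas+/+ libraries. Slc7a5, the LAT1 carrier, gave 473, 580, 787, 404 and 1050 CPM in the 5 mice labelled P301S Cgas-/- with enough nuclei. In P301S Cgas+/+ mice it ran from 799 through a median of 892 to 1520 CPM. Of the 5, 4 lay below every P301S Cgas+/+ mouse, and replicate 6, at 1050 CPM, lay among them. The log2 difference was -0.60 ± 0.20, with a 95% interval of -1.01 to -0.18, an unadjusted p of 0.0058 and an edgeR adjusted p of 1. The exact two-sided permutation p, with no account of sex, was 0.0649. Replicate 3, left out with 9 nuclei, stood at 1130 CPM. With the 182 nuclei put back, the 6 mice labelled P301S Cgas-/- gave 427, 564, 936, 685, 365 and 1050 CPM, of which 3 lay below the lowest P301S Cgas+/+ mouse at 677 CPM, and the difference was -0.53 ± 0.22 (unadjusted p of 0.0264). No gene of the 2248 was called (0%), and 1 of the 10 against 70 of all (3.11%) had an unadjusted p under 0.05. For the other 9 the differences lay between -0.25 (Mfsd2a) and 0.17 (Slco1a4), with the interval of Flt1 at -0.36 to 0.22 and that of Cldn5 at -1.02 to 0.52. The direction of Cldn5, at -0.25 ± 0.37, was not stable. It was 0.69 ± 0.31 within the large subcluster alone, 0.09 ± 0.37 with the 182 nuclei put back and 0.11 ± 0.30 without P301S Cgas+/+ replicate 4, and was called in none of these fits (edgeR adjusted p of 1 in each).

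The heterozygous contrast, P301S Cgas+/- against P301S Cgas+/+ libraries, gave differences from -0.25 ± 0.20 for Slc7a5 to 0.13 ± 0.21 for Slc2a1. None of the 10 was called, nor any of all genes (0%), and at an unadjusted p under 0.05 there were 0 of the 10 and 74 of all (3.29%). Slc7a5 gave 553, 768, 547, 1380 and 1030 CPM in the 5 P301S Cgas+/- mice with enough nuclei, and the groups overlapped.

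Without the transgene, Cgas-/- mice were set against Cgas+/+ mice, with 2 and 4 mice, and the interaction asked whether that difference changed with the transgene. Flt1 gave 8790 and 7850 CPM in the libraries labelled Cgas-/-, above all 4 Cgas+/+ mice. The log2 difference was 0.65 ± 0.19 (unadjusted p of 0.00167, edgeR adjusted p of 0.993). With the 182 nuclei put back the values were 6760 and 7530 CPM, Cgas+/+ replicate 3 entered at 6930 CPM, so that the groups overlapped, and the difference was 0.54 ± 0.23 (unadjusted p of 0.0231). Slc7a5 gave 1110 and 875 CPM, the first above all 4 Cgas+/+ mice (710, 893, 1020 and 451 CPM) and the second among them. Its difference was 0.62 ± 0.30 with an unadjusted p of 0.0421. None of 2872 genes was called (0%), and 105 had an unadjusted p under 0.05 (3.66%). The interaction was -1.22 ± 0.36 for Slc7a5 (unadjusted p of 0.00153) and -0.72 ± 0.24 for Flt1 (0.00425), both with an edgeR adjusted p of 0.975. None of all genes was called for it (0%), and 132 had an unadjusted p under 0.05 (4.6%). All Cgas-/- and Cgas+/- mice without the transgene were male, and their file headers all name software version 3.0.2. The Cgas+/+ and P301S groups mix versions 3.0.2 and 3.1.0, and the part of the version in these differences was not tested. The comparisons share their Cgas+/+ and P301S Cgas+/+ mice.

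The mean of the 3 P301S groups was set against the mean of the 3 non-transgenic groups in 24 mice. Each genotype group had equal weight. A Cgas+/- or Cgas-/- mouse, 2 in each group, thus counted for more than 1 of the 4 Cgas+/+ mice. Again none of the 10 and none of 2872 genes was called (0%). With an unadjusted p under 0.05 there were 2 of the 10 and 161 of all (5.61%). Tfrc, the transferrin receptor, had a difference of -0.44 ± 0.19 (unadjusted p of 0.0251, edgeR adjusted p of 0.791), and group means of 604 ± 274, 569 ± 43.5 and 841 ± 91.7 CPM in Cgas+/+, Cgas+/- and Cgas-/- mice. The P301S groups had 453 ± 150, 490 ± 61.9 and 456 ± 151 CPM in the same order of Cgas dose, and single mice overlapped, from 330 CPM up in Cgas+/+ and up to 658 CPM in P301S Cgas+/+ mice. Slc7a5 had -0.34 ± 0.16 (unadjusted p of 0.04, edgeR adjusted p of 0.87). With the 182 marked nuclei put back these became -0.24 ± 0.20 and -0.17 ± 0.17, and Abcb1a had 0.32 ± 0.14 with an unadjusted p of 0.026.

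**Figure D3:**
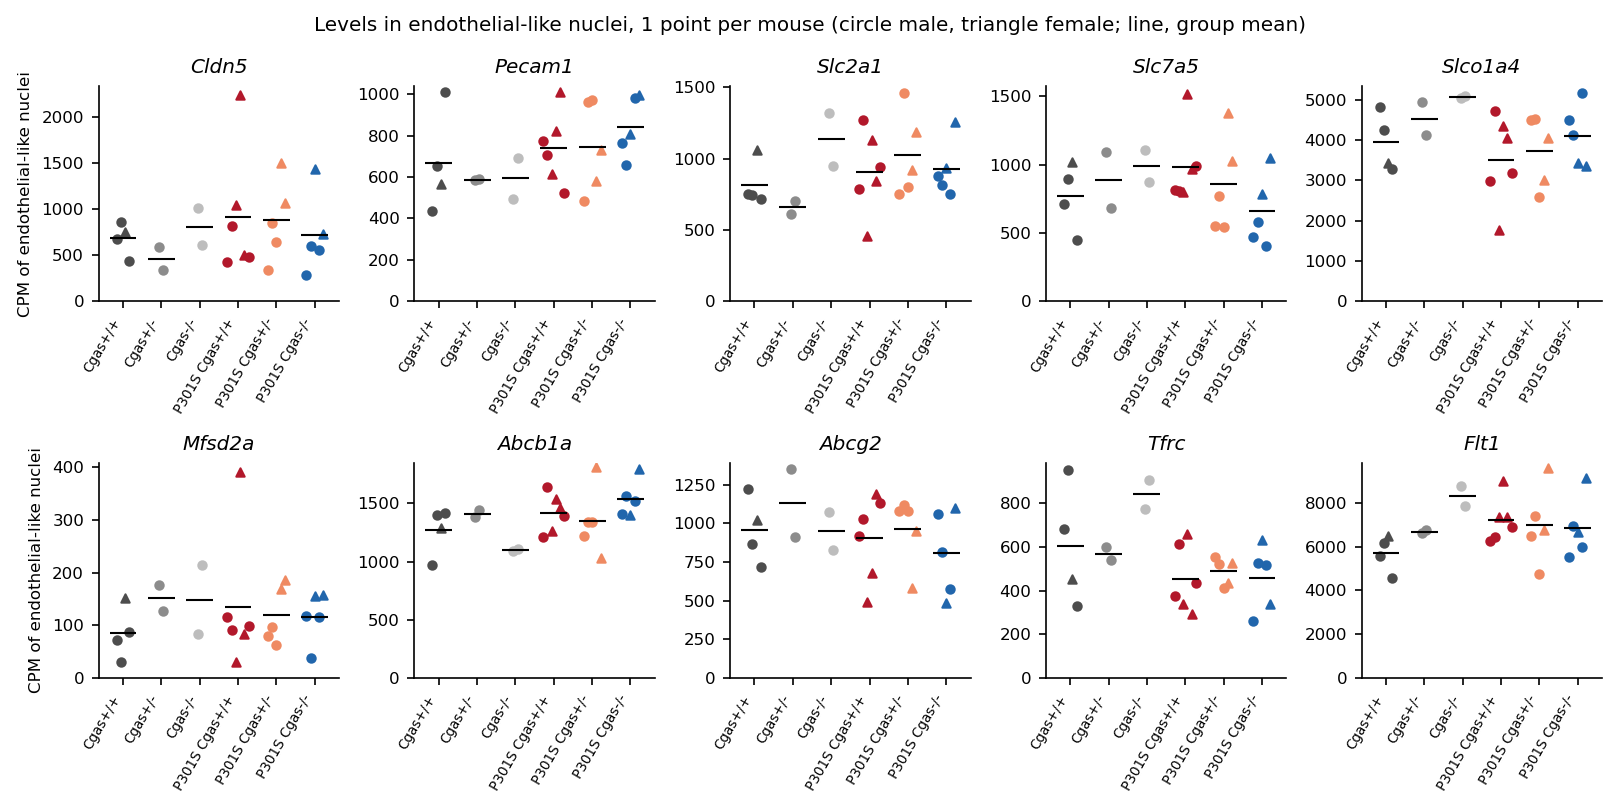
Level (CPM, from 0) of each gene in endothelial-like nuclei, 1 point a mouse with at least 10 such nuclei, by genotype group, with the group mean as a line and sex by marker shape. The Slc7a5 values of 4 of 5 P301S Cgas-/- mice lie under 799 CPM, the lowest P301S Cgas+/+ mouse, and P301S Cgas+/+ replicate 4 stands highest for Cldn5 at 2240 CPM and Mfsd2a at 391 CPM.

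Other genes of the barrier were taken from 7 lists: junction genes, pumps and carriers, transcytosis genes, Wnt and norrin signalling genes, angiogenic receptors, transcription factors and basement membrane genes. For the tau, deletion and heterozygous contrasts, 9 of 18, 15 of 27, 5 of 12, 11 of 15, 13 of 25, 11 of 24 and 7 of 12 of their genes passed the filter on low counts. None was called in either direction in any contrast. List medians of the log2 difference lay between -0.14 and 0.16, against 0.01 or -0.01 for all genes tested. In the deletion contrast Cavin2, a coat protein of caveolae, had -0.99 ± 0.35 (unadjusted p of 0.00774). In the heterozygous contrast Slc7a1, the cationic amino acid carrier, had -0.53 ± 0.21 (unadjusted p of 0.0163) and Lama4, a laminin of the vessel wall, 0.65 ± 0.26 (0.0156). With all P301S mice against all non-transgenic mice, Tcf7l1, a TCF/LEF factor, had 1.02 ± 0.31 (unadjusted p of 0.00225). Hif1a, the hypoxia-inducible factor, had 1.32 ± 0.44 (0.00476). Abcc4, a pump of organic anions, had 0.43 ± 0.14 (0.00316, edgeR adjusted p of 0.59). These genes were named for a small unadjusted p, and none was called. Over all genes, 5.61% had an unadjusted p under 0.05 in that contrast. In that contrast 1 of the 12 dissociation and immediate early genes passed the filter, Jun, at 0.11 ± 0.47.

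Sex was the term of the same fit with called genes. Of 2248 genes, 3 were called higher in females (0.133%), and 5 lower. Among the 3 was Slc7a5, beside Xist and B2m, the light chain of MHC class I. Over the 8 females of that fit, Slc7a5 ran from 787 through a median of 1030 to 1520 CPM, and over its 12 males from 404 through 645 to 994 CPM. The groups overlapped between 787 and 994 CPM. The other 4 males with enough nuclei, non-transgenic Cgas+/- and Cgas-/- mice whose groups hold no female, were not in the fit. They stood at 1090 and 685 CPM (Cgas+/-) and 1110 and 875 CPM (Cgas-/-), so 2 of the 4 lay above the highest of the 12 males and above the female median. The log2 difference was 0.71 ± 0.16, with an interval of 0.39 to 1.02 and an edgeR adjusted p of 0.0288. Slc3a2, which encodes the 4F2 heavy chain that pairs with LAT1, had 0.61 ± 0.23 and was not called (unadjusted p of 0.0112).

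At an unadjusted p under 0.05 there were 4 of the 10 genes and 217 of all genes for sex (9.65%). Cldn5 ran from 506 through 1060 to 2240 CPM in females and from 289 through 580 to 864 CPM in males, with a log2 difference of 1.05 ± 0.28 (edgeR adjusted p of 0.176). Mfsd2a ran from 30.7 through 156 to 391 CPM in females and from 29.8 through 89.3 to 118 CPM in males (0.97 ± 0.32, edgeR adjusted p of 0.228). For both genes the groups overlapped, with the highest values in females. The 4 males outside the fit stood at 586, 343, 1010 and 614 CPM for Cldn5 and at 177, 127, 82.6 and 215 CPM for Mfsd2a, so 1 and 3 of them lay above the highest of the 12 males. Flt1 had 0.35 ± 0.11 (edgeR adjusted p of 0.209). The other 6 lay between -0.24 ± 0.17 for Abcg2 and 0.13 ± 0.16 for Slc2a1. The medians of all 7 barrier gene lists described above exceeded the 0 of all genes. They ran from 0.12 for angiogenic receptors to 0.35 for basement membrane genes. Among the latter, Col4a1, a collagen IV chain, had 0.59 ± 0.21 and Lamc1 had -0.61 ± 0.31, with 0 called.

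Several measures moved with sex. All libraries whose file header names software version 3.0.2 were male. Within the libraries of version 3.1.0 (8 females, 4 males) Slc7a5 had 0.84 ± 0.24 (edgeR adjusted p of 0.248), and with the version as a block 0.88 ± 0.21 (0.0636). The small subcluster took a median of 15.2% of the endothelial-like nuclei of females (7.14% to 41.7%) and 12.9% of males (3.23% to 16.3%). Mitochondrial RNA took 0.833% (0.439% to 2.82%) and 0.651% (0.135% to 1.18%) of UMIs. The mural marker list summed to 151 through 496 to 2200 CPM in females and 135 through 364 to 1360 CPM in males. The endothelial marker list, with none of the genes described here, summed to 7960 through 10100 to 11700 CPM in females. In males it summed to 7840 through 9100 to 9980 CPM, so the groups overlapped. Females also had fewer endothelial-like nuclei, a median of 25 against 44.5. The part of these measures in the result was not tested. In the large subcluster alone Slc7a5 had 0.77 ± 0.18 and Cldn5 0.50 ± 0.24 (edgeR adjusted p of 0.0688 and 0.623). The Slc7a5 call was also lost with marked nuclei put back, with at least 20 nuclei a mouse and with nuclei classed by marker UMIs. It was lost too without nuclei holding neuronal marker UMIs. With no low-count filter Cldn5 was called in its place. Leaving out 1 mouse at a time ended the Slc7a5 call in 11 of 20 fits, with edgeR adjusted p from 0.00563 to 0.103. Those mice were Cgas+/+ replicate 4, P301S Cgas+/+ replicates 1 and 4, P301S Cgas+/- replicates 1, 3, 4 and 5, and P301S Cgas-/- replicates 1, 4, 5 and 6.

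**Figure D4:**
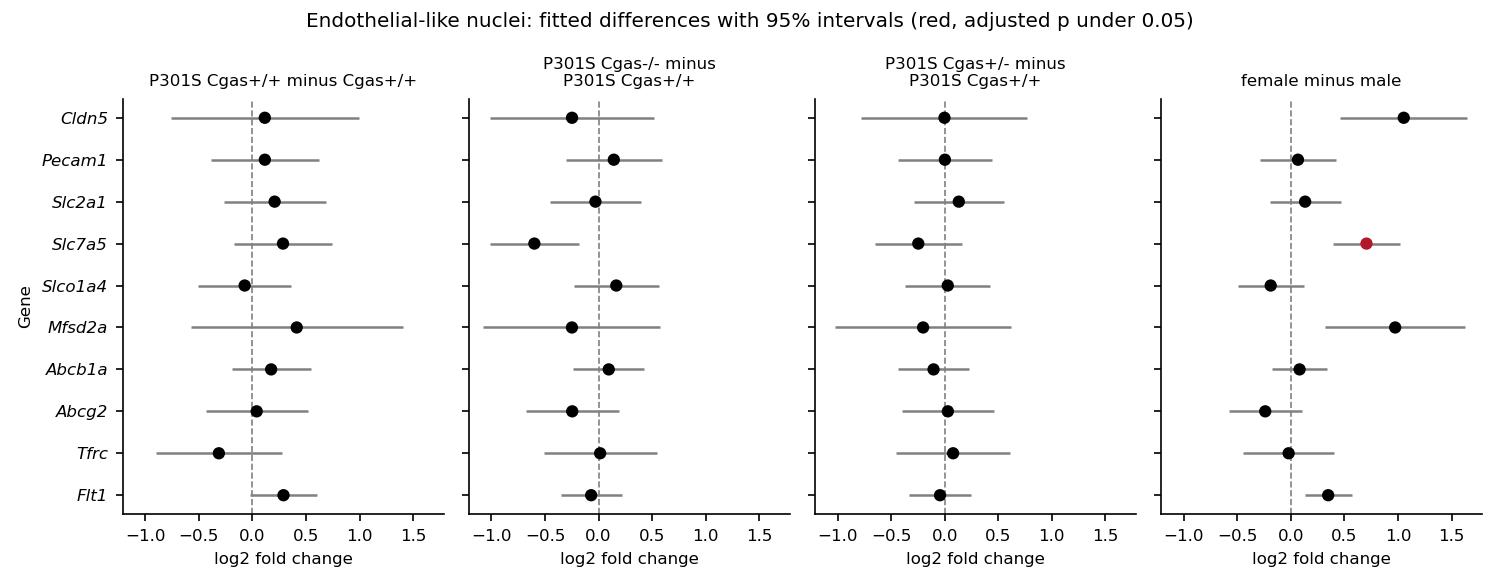
Log2 difference of each gene in endothelial-like nuclei (points) with its 95% interval (bars) for the tau, deletion, heterozygous and female-minus-male contrasts, by edgeR; 0 is no difference. Of the genotype intervals only that of Slc7a5 in the deletion contrast, at -0.60, leaves out 0, and Slc7a5 is the only one of the 10 called, for sex, at 0.71.

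Endothelial-like nuclei made up 0.394% ± 0.323 of kept nuclei in Cgas+/+ mice (n = 5) and 0.413% ± 0.223 in P301S Cgas+/+ mice (n = 6). The highest group mean was that of the 2 Cgas+/- mice, 0.79% ± 0.171, and the 2 Cgas-/- mice had 0.47% ± 0.022. The share was 0.433% ± 0.238 in P301S Cgas+/- mice (n = 6) and 0.521% ± 0.27 in P301S Cgas-/- mice (n = 6). Exact two-sided permutation tests gave differences of 0.0195, 0.107 and 0.0197 percentage points for the tau, deletion and heterozygous contrasts, with p = 0.909, 0.461 and 0.887 (all 0.909 adjusted over the 3). With the marked nuclei put back the tau difference was -0.117 points. In sums over whole libraries fewer endothelial nuclei and less RNA per nucleus cannot be told apart. There, none of the 10 was called in the tau, deletion or heterozygous contrasts (0.007% of all tests) or with all P301S mice against all non-transgenic mice (2.13% of genes).

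Outside the endothelium, the 10 genes were tested in 7 other classes wherever they passed the filter, 105 tests over the tau, deletion and heterozygous contrasts. None was called by edgeR, against 10 calls in 223386 tests of all genes (0.00448%). DESeq2 called 2, both in microglia-like nuclei in the tau contrast: Slc2a1 (adjusted p of 0.0484) and Flt1 (0.0196). Neither passed the low-count filter through the Cgas+/+ mice, of which 1 exceeded 12 CPM for Slc2a1 and none exceeded 13.9 CPM for Flt1, so these calls are a description and support nothing. DESeq2 called 0.284% of the 222730 tests of all genes in those classes and contrasts, and 3.11% of 9091 genes in that microglial contrast. In OPC-like nuclei Mfsd2a had -0.65 ± 0.26 in the tau contrast (unadjusted p of 0.0161). In excitatory neuron-like nuclei Tfrc had 0.38 ± 0.12 in the deletion contrast and 0.41 ± 0.12 in the heterozygous one (edgeR adjusted p of 0.272 and 0.247). The fibroblast-like and choroid plexus-like classes had under 3 mice in some groups and were not fitted. With all P301S mice against all non-transgenic mice, none of the 10 was called in 6 classes (1.09% of tests), with Mfsd2a in excitatory neuron-like nuclei nearest at -1.12 ± 0.32 (edgeR adjusted p of 0.0604).

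Microglia-like nuclei were described further. The 18 P301S mice were set against the 9 non-transgenic mice, again with equal weight for each genotype group. This comparison was added after the Flt1 levels had been seen, and 6 of the 10 genes passed the filter. Of these, 3 were called higher and 1 lower, and over all 9627 genes 7.62% were called higher and 4.39% lower. No weight is put on that count, since Flt1, Slc7a5 and Tfrc passed the filter only through the P301S mice. Flt1 gave 0, 2.47, 2.4, 2.94 and 13.9 CPM in the 5 Cgas+/+ mice, 7.5 and 8.04 CPM in the Cgas+/- mice, and 2.46 and 1.69 CPM in the Cgas-/- mice. It gave 131, 5.09, 187, 7.57, 127 and 36.0 CPM in the P301S Cgas+/+ mice. The P301S Cgas+/- mice gave 53.1, 28.9, 123, 257, 5.49 and 0 CPM, and the P301S Cgas-/- mice 50, 101, 2.47, 15.7, 146 and 53.4 CPM. Thus 13 of 18 P301S mice lay above every non-transgenic mouse, in each of the 3 P301S groups, and the other 5 lay within the non-transgenic range. Those 5 were P301S Cgas+/+ replicates 2 and 4, P301S Cgas+/- replicates 5 and 6, and P301S Cgas-/- replicate 3. The 9 non-transgenic mice held 20 Flt1 UMIs in all and the 18 P301S mice 1409. Flt1 reached the filter's level of 16.1 CPM in 12 P301S and 0 non-transgenic mice, so it was tested only because it was high in P301S mice, and the comparison was added after those levels had been seen. Its fitted difference, 4.14 ± 1.11, is therefore a description of the values above, with no test. The same holds for Slc7a5 and Tfrc, with 1 and 0 non-transgenic mice at that level, where 2 mice were needed. Slc2a1 reached it in 2 non-transgenic mice, Pecam1 and Abcg2 in all 9.

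Slc2a1 ran from 1.99 through a median of 9.84 to 20.6 CPM in non-transgenic and from 11.4 through 22.9 to 44.9 CPM in P301S mice. The groups overlapped between 11.4 and 20.6 CPM, and the difference was 1.11 ± 0.31 (edgeR adjusted p of 0.0204). Slc7a5 ran from 4.83 through 7.41 to 20.6 CPM and from 9.83 through 18.5 to 37.7 CPM, and its fitted difference of 0.98 ± 0.28 is likewise given with no test. Pecam1 was the one called lower. It ran from 22.5 through 38.3 to 67.6 CPM in non-transgenic mice and from 4.07 through 13.9 to 59.3 CPM in P301S mice, a difference of -1.33 ± 0.42 (edgeR adjusted p of 0.0386). In 4 of the 5 P301S mice with low Flt1, Pecam1 was highest among P301S mice, at 45.8, 59.3, 38.4 and 51.8 CPM, while P301S Cgas+/- replicate 6 had 9.52 CPM. Abcg2, at 0.01 ± 0.12 (interval -0.23 to 0.24), was not called, and Tfrc had -0.06 ± 0.28. In the deletion contrast Slc7a5 had 0.82 ± 0.27 (unadjusted p of 0.00581, edgeR adjusted p of 1) and Flt1 -0.42 ± 0.86, and no member was called.

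These levels were far under the endothelial-like ones, so endothelial RNA in the same droplets was measured. The 12 endothelial markers summed to 71.2 through 93.9 to 115 CPM in microglia-like nuclei of non-transgenic mice and to 37.2 through 67.5 to 131 CPM in those of P301S mice. Nearly all of that was Eng, at 61.6 CPM, which encodes endoglin, while the others stood between 0 CPM for Egfl7 and 1.48 CPM for Tek. Slco1a4, Cldn5, Abcb1a and Mfsd2a together summed to 0 through 2.47 to 9.93 CPM in non-transgenic and 0 through 2.03 to 7.14 CPM in P301S mice. Of 729 P301S microglia-like nuclei with a Flt1 UMI, 9.05% carried an endothelial marker UMI, against 10.7% of 7470 without Flt1, with median depths of 2204 and 1720 UMIs. In non-transgenic mice the order was the other way, with 29.4% of the 17 nuclei that carried Flt1 against 12.1% of 3060 without. Most marker UMIs in this class were Eng, so these shares mostly count Eng. They cannot show whether nuclei with Flt1 held endothelial RNA, and no share without Eng is given. A Slco1a4 UMI was seen in 0 of the 729, which allows a share of up to 0.412%, and in 14 of the 7470, counts too low to tell these sets apart. Flt1 was concentrated: 71.3% of its microglial UMIs came from 1 subcluster of 1499 nuclei, where 30.8% of nuclei carried it, and 23.4% from another of 2692. The first held 1497 nuclei of P301S mice and 2 of non-transgenic mice, and the second 2604 and 88. Most of the 3077 non-transgenic microglia-like nuclei, 2434, lay in a subcluster of 4166, where 0.624% carried Flt1, beside 1732 nuclei of P301S mice. The class thus lay in different subclusters in P301S and non-transgenic mice, and the part of this in the differences above was not tested.

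The microglial calls of Slc2a1 and Pecam1 rest on non-transgenic Cgas+/- and Cgas-/- groups of 2 mice each. Flt1 and Slc7a5 are left out here, since they had no test. A fit without 1 of those mice leaves 1 in its group, so it cannot show whether a call holds. Over all fits without 1 mouse, the difference ran from 1.001 to 1.516 for Slc2a1 and from -1.532 to -1.161 for Pecam1. With the header version as a block, Slc2a1 had 1.14 ± 0.33 (edgeR adjusted p of 0.029) and Pecam1 was no longer called (-1.25 ± 0.44, 0.0793). The Pecam1 call also ended without any 1 of 10 mice of the larger groups: Cgas+/+ replicates 1, 2, 4 and 5, P301S Cgas+/+ replicate 1, P301S Cgas+/- replicates 2 and 3, and P301S Cgas-/- replicates 1, 2 and 5. Without 1 of them its edgeR adjusted p stayed at or under 0.0685.

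**Figure D5:**
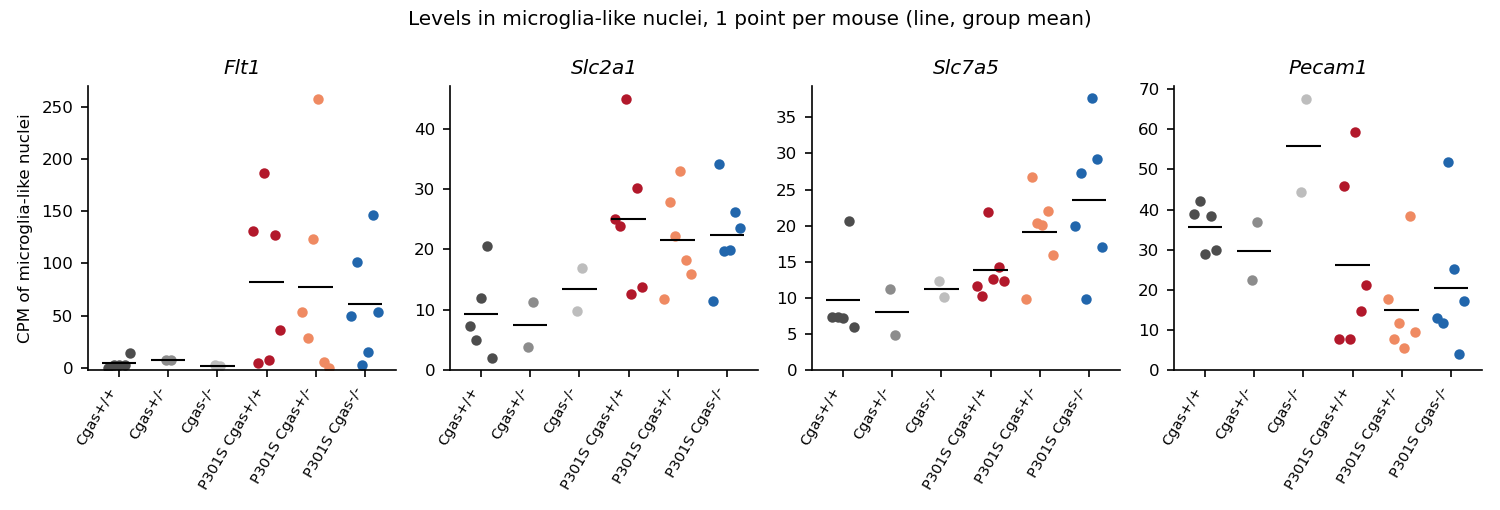
Level (CPM) in microglia-like nuclei of Flt1, Slc2a1, Slc7a5 and Pecam1, 1 point a mouse by genotype group, with the group mean as a line. Flt1 exceeds 13.9 CPM, the highest non-transgenic mouse, in 13 of 18 P301S mice, and Pecam1 is lower in most P301S mice, with a median of 13.9 against 38.3 CPM.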

How the data were processed

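Hippocampal nuclei, sorted by fluorescence for DAPI, were profiled in 27 mice with Chromium 3' v3 kits. Each deposited matrix is of counts: whole UMIs, not normalized, for every gene in every barcode the authors had called. They aligned to mm10 with Cell Ranger 3.1.0, per the labels, and kept intronic reads. File headers name version 3.0.2 for replicates 1 and 2 of every group, all male, and 3.1.0 for the rest. Nuclei with under 200 or over 4000 genes (20030 over) or over 5% mitochondrial UMIs (630) were left out, as in the study. Likely doublets (16429) were the nuclei with the highest Scrublet scores (scanpy 1.11.5), 0.8% per 1000 barcodes of each library. Nuclei were clustered from 2000 variable genes, without the 10 genes, in 30 components, at resolution 1. Clusters were named from marker lists, and 18763 nuclei (9.16%) stayed unnamed. The naming thresholds were revised once cluster names and leading genes had been seen, before any group was compared.

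UMIs were summed per mouse and class, with at least 10 nuclei, and compared in R 4.3.3 with edgeR 4.0.16 (TMM, filterByExpr by group, robust quasi-likelihood, genotype group and sex as terms). Adjusted p is Benjamini-Hochberg over all genes of a class and contrast, and a call is an adjusted p under 0.05. The SE and interval of an edgeR difference are not given by the test and were derived from the difference and its F statistic. In endothelial-like nuclei the tau, deletion, heterozygous and sex contrasts used 20 mice and the wider ones 24. The genotype contrasts of mural-like nuclei used 20 and 24 too, and those of the other fitted classes and of whole libraries 23 and 27. The comparison of all P301S with all non-transgenic mice gave each genotype group equal weight. DESeq2 1.42.0 was an alternative. Exact permutation tests of levels used log2(CPM + 1), and no permutation test had a sex term. The steps were checked on simulated counts. Each library is 1 mouse, and intervals for shares cover counting error only. Precision in rare classes such as the endothelial-like nuclei is limited by their number, 0 to 86 a mouse.

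All 10 genes were to be described in endothelial-like nuclei and in each class with over 5% of their UMIs. From the lists, called genes were to be named, at most 4 per direction, or else those with the smallest unadjusted p. The 10 genes and the lists were chosen with earlier results of these data known. Promoter windows and start sites come from RefSeq, and spans from GENCODE vM21, both on GRCm38.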

Additional observations from a re-analysis of the deposited data

Results flagged for a closer look

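Of 60 sets of 4 to 6 mice checked for a sample far from the others of its group (by Dixon's ratio at 95%), 8 had one, and chance gives about 1 in 20. P301S Cgas+/+ replicate 4, a female, gave 3 of the 8 in endothelial-like nuclei: Cldn5 at 2240 CPM (next mouse 1050), Slc7a5 at 1520 CPM (next 994) and Mfsd2a at 391 CPM (next 116). That library had 12 endothelial-like nuclei, of which 41.7% lay in the small subcluster, with 2.82% mitochondrial UMIs and a mural marker sum of 2200 CPM, the highest of the 24 mice on each of the last 3 measures. Their part in the values was not tested. Without it the sex difference of Slc7a5 was no longer called. Slc2a1 in endothelial-like nuclei stood at 1060 CPM in Cgas+/+ replicate 4 (next 753), a library with 14 such nuclei. In microglia-like nuclei, Flt1 stood at 13.9 CPM in Cgas+/+ replicate 5 (next 2.94), Slc7a5 at 20.6 CPM in Cgas+/+ replicate 4 (next 7.41) and at 21.9 CPM in P301S Cgas+/+ replicate 3 (next 14.3), and Pecam1 at 38.4 CPM in P301S Cgas+/- replicate 5 (next 17.7).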

How the results depend on the processing

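Of 1456 recomputed values 1362 kept their side of the threshold and, but for 131 sign changes from a value within 1 SE of 0, their direction, 45 lost a call, 3 gained one, 17 turned and 29 counts changed by over 1.5 times. The number of the 10 genes called for sex, 1 in the report, was 2 by DESeq2 and 0 with the header version as a block, within version 3.1.0, with at least 20 nuclei a mouse, with marked nuclei put back, in the large subcluster alone, without nuclei holding neuronal marker UMIs and with nuclei classed by marker UMIs. With no low-count filter the 1 called gene was Cldn5 in place of Slc7a5. Leaving out 1 mouse at a time gave 0 to 2. In microglia-like nuclei the 4 calls became 0 to 4 when 1 mouse was left out, and DESeq2 called 2 in the 105 tests of other classes where edgeR called 0. For all P301S against all non-transgenic mice the genes called in endothelial-like nuclei became 2 with no filter and 0 to 1 without 1 mouse, and for the heterozygous contrast 0 to 1. Among those 131 was Cldn5 in the deletion contrast, 0.69 in the large subcluster alone and 0.09 with marked nuclei put back. The differences counted as turned were Tfrc in the tau contrast, 0.55 with nuclei classed by marker UMIs, and Slco1a4 for sex, 0.0162 with the version as a block and 0.0016 within version 3.1.0. The tau difference in endothelial-like share was -0.0882 points of non-neuronal nuclei, -0.212 with marker classes and -0.117 with marked nuclei put back. It ran from -0.0754 to 0.128 without 1 mouse, and the heterozygous one from -0.0400 to 0.106. The cause of these changes was not tested. No paired analysis was possible because the replicate numbers only name mice within a genotype, in the order of their records. With 963 endothelial-like nuclei, intervals as wide as that of Mfsd2a (-0.58 to 1.40) do not separate no difference from a large one.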
